A study of Mus musculus with 56 samples.

Results

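The enzymes of the pentose phosphate pathway were measured as 8 listed genes (G6pdx, Pgls, Pgd, Rpia, Rpe, Taldo1, Tkt and H6pd) of the 52230 genes to which transcripts were assigned in liver RNA-seq. The genes were taken by name and not by a measured value, but earlier results of these data were known when they were chosen. The samples were livers of 56 male mice of the P446L line, 1 library per mouse. The knock-in allele of this line replaces proline by leucine at residue 446 of GKRP, the glucokinase regulatory protein encoded by Gckr. Mice were homozygous for 446P (PP, wild type, without the knock-in allele), heterozygous (PL) or homozygous for 446L (LL). The knock-in allele is present from the germline, so that the change was not restricted to hepatocytes. All groups received a high-fat high-sugar diet (45% fat, with 10% glucose and 5% fructose in the drinking water) for 20 weeks, and no group on standard chow was analysed here. The GKA groups also received a glucokinase activator (GKA), labelled as 3 mg/kg. After PP mouse 7 was left out, as the study did, the groups without GKA held 9 PP, 8 PL and 10 LL mice and the groups with GKA held 10 PP, 8 PL and 10 LL mice. No label gave a litter, a harvest time or a sequencing batch, and a missense change gives no check of the genotype from transcript levels.

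The pentose phosphate pathway branches from glycolysis at glucose 6-phosphate. Its oxidative phase makes NADPH, which liver uses for the synthesis of fatty acids and cholesterol and for the reduction of glutathione, and it ends in ribulose 5-phosphate. Its non-oxidative phase interconverts pentose phosphates with fructose 6-phosphate and glyceraldehyde 3-phosphate, and its reactions are reversible. GKRP binds glucokinase in the hepatocyte nucleus and limits its activity, so that the genotype and GKA both bear on the supply of glucose 6-phosphate from which the pathway starts. Carbohydrate feeding is known to raise the transcripts of several of these enzymes together with those of fatty acid synthesis.

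In the oxidative phase, G6pdx (GRCm39 X:73449857-73472819, minus strand) encodes glucose-6-phosphate dehydrogenase, which commits glucose 6-phosphate to the pathway. Pgls (8:72044202-72053768, plus strand) encodes 6-phosphogluconolactonase, and Pgd (4:149233246-149251228, minus strand) encodes 6-phosphogluconate dehydrogenase, which yields NADPH and ribulose 5-phosphate. H6pd (4:150055676-150093559, minus strand) encodes hexose-6-phosphate dehydrogenase, which carries out the first oxidative steps inside the endoplasmic reticulum. In the non-oxidative phase, Rpia (6:70742704-70769216, minus strand) encodes ribose 5-phosphate isomerase and Rpe (1:66739945-66765663, plus strand) encodes ribulose-5-phosphate 3-epimerase. Taldo1 (7:140972053-140982886, plus strand) encodes transaldolase and Tkt (14:30270156-30299612, plus strand) encodes transketolase, which transfer carbon units between sugar phosphates.

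The regions upstream of Pgd and Taldo1 are shown because Pgd was the enzyme called between genotypes and Taldo1, whose level across mice followed that of Pgd (r = 0.71), was not. Tkt followed Pgd more closely (r = 0.91) and was not called either. Its 250 upstream bases held no stretch of 200 bases outside annotated exons, the shortest length printed. Both printed regions lie outside annotated exons in GRCm39 and run 5′ to 3′ on the strand of the gene. Capitals mark a GC box (letters GGGCGG), the motif bound by Sp1. The Pgd sequence covers chr4:149251229-149251428 on the minus strand and ends 50 bases before the start of Pgd-201, with its GC box 77 bases upstream of that start. The Taldo1 sequence covers chr7:140971826-140972052 on the plus strand and ends 23 bases before the start of the main coding transcript, with its GC box 52 bases upstream of that start.
Pgd: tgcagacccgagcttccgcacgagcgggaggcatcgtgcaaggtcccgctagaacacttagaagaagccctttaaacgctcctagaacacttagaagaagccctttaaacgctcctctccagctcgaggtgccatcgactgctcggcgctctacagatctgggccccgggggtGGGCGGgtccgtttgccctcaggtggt
Taldo1: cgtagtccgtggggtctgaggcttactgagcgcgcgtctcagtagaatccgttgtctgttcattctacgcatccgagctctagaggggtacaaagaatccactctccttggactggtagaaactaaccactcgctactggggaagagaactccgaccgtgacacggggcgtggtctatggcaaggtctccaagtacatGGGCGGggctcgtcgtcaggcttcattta
The intervening bases belong to exons of other annotated transcripts and are not printed. The 300-base windows from 250 bases before to 50 bases after the start of the main coding transcript of each enzyme were searched on both strands. The GC box was found in 5 of 8 windows (Pgd, Pgls, Rpe, Taldo1 and Tkt) against 35.7% of 32851 mouse promoters of the same length from RefSeq (GRCm38.p6), which hold entries for 8 of 8 enzymes. The CCAAT box (letters CCAAT) was found in 5 of 8 windows (H6pd, Pgd, Pgls, Rpe and Taldo1) against 37.4% of these promoters. The E-box CACGTG was found in 0 of 8 windows against 7.15%, the antioxidant response core TGACNNNGC in 0 of 8 against 12.4%, and the sterol response letters TCACNCCAC in 0 of 8 against 1.24%. None of these 5 motifs contains another, and a match or its absence in a window of this length describes the letters only.

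Depth was 5189852 to 8093368 estimated reads per liver (median 6555851), and 99.8% to 99.9% of these fell on transcripts matched to a gene. The 6 hepatocyte markers were found in every group, with a summed level of 75126 to 124651 CPM (read count scaled to TMM-normalised library size), whereas no marker list of hepatocytes, macrophages, erythroid, stellate, endothelial or bile duct cells held a gene called in any of the 4 pooled comparisons. Between LL and PP over both treatments, however, 4 of 5 erythroid markers had an unadjusted p under 0.05, with a median of 0.64 on the log2 scale. Sox9, the 1 bile duct marker tested, was at -0.60 (unadjusted p = 0.00671). Cfd, the 1 adipocyte marker tested, was at 1.09 (unadjusted p = 0.0323, edgeR). The median hepatocyte sum was 107503, 94867 and 96828 CPM in PP, PL and LL without GKA, and 109584, 96690 and 100409 with GKA. Within groups over 55 mice, Pgd correlated at -0.09 with the summed erythroid markers and at -0.25 with the bile duct markers. It was at -0.36 with the hepatocyte and -0.37 with the pancreas markers. Tkt was at -0.34 and -0.49 with these, and Taldo1 at -0.36 and -0.10. The part of these markers in the results was not tested. In bulk liver, fewer cells of a type and less RNA per cell cannot be told apart. Counts limit the 2 lowest enzymes most, since G6pdx rested on 7.37 to 104.7 reads per liver (median 22.9) and Rpia on 7.25 to 50.0 (median 16.9). All 8 enzymes passed the filter on low counts in each of the 15 comparisons.

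Levels were compared between enzymes as CPM per kb of effective transcript length, over the 55 livers. Taldo1 was highest (median 108), followed by Tkt (89.5) and H6pd (84.4). The order of these 3 turned with the unit: by TPM, H6pd was highest (median 77.6), followed by Tkt (66.7) and Taldo1 (57.0), and by CPM without regard to length H6pd was also highest. CPM per kb was chosen after the TPM values were seen to depend on the share taken by single short transcripts. By CPM per kb, Pgls (37.3) and Pgd (31.0) were intermediate. Rpe was at 9.52, whereas Rpia (1.79) and G6pdx (1.76) were lowest. Taldo1 exceeded Tkt in 45 of 55 livers, but Tkt exceeded H6pd in only 31, Pgls exceeded Pgd in 33 and Rpia exceeded G6pdx in 29, so that the neighbours in these last 3 pairs were not separated. The steps from H6pd to Pgls, from Pgd to Rpe and from Rpe to Rpia held in 55 of 55 livers each. Within the oxidative phase the transcript of the committing dehydrogenase was the scarcest, since Pgd exceeded G6pdx 18.2-fold per kb (median ratio) and H6pd, the dehydrogenase of the endoplasmic reticulum, exceeded G6pdx 48.9-fold, each in 55 of 55 livers.

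**Figure D1:**
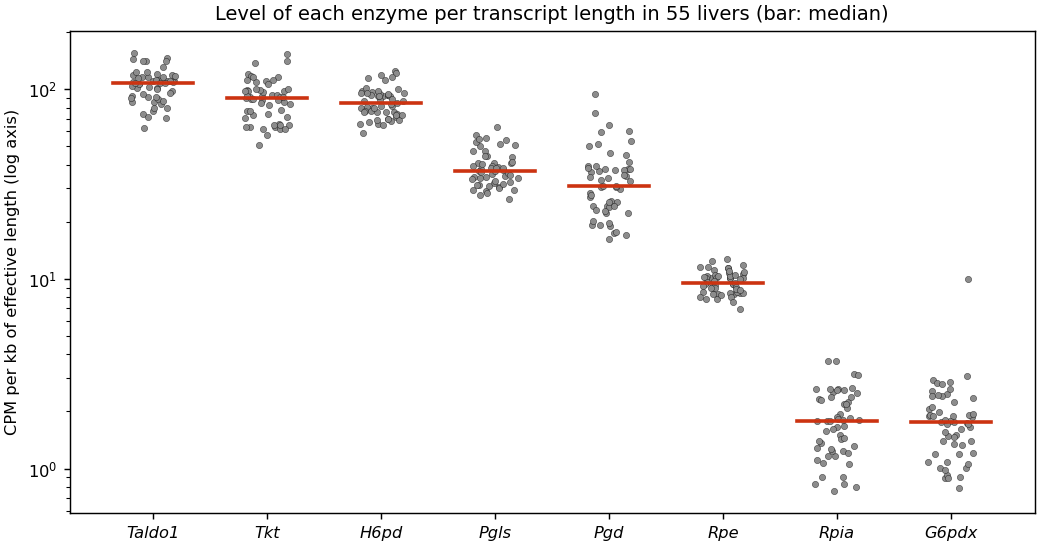
Level of each enzyme in 55 livers as CPM per kb of effective length, on a log axis, with 1 point per mouse and a bar at the median. Taldo1, Tkt and H6pd overlap near the top (medians 108, 89.5 and 84.4), and Rpia and G6pdx overlap at the bottom (1.79 and 1.76).

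Part of each level depends on the transcripts to which reads were assigned. For G6pdx, Pgls, Pgd, Taldo1 and H6pd, 1 coding transcript held 91.7% or more of the reads of the gene, and for Rpia 87.7%. For Tkt, 76.3% of reads were assigned to Tkt-209 (14:30279566-30295581), annotated without a defined coding sequence, and only 15.5% to the coding transcript Tkt-201 (14:30271081-30296677). For Rpe, Rpe-201 held 68.9% of reads and Rpe-205, annotated as a target of nonsense-mediated decay, held 26.3%. G6pdx, Pgls, Rpe, Tkt and H6pd share exon bases with other annotated genes, the longest stretch being 2232 of 13239 exon bases of Rpe with Kansl1l on the opposite strand, and the strand setting of the counting was not given in the sources used here. Rpe and Kansl1l are identical over 1772 bases, so that the split of reads between them is uncertain. Taldo1 has near-identical stretches in Cep85l (93.4% over 1253 bases, 4032 reads over all mice against 30855 for Taldo1) and in Gm17823 (94.8% over 1016 bases, 13.0 reads), so that its level is uncertain to the extent that reads were split with Cep85l. The intronless copy of G6pdx, G6pd2 (93.2% identity over 2332 bases), had 0 reads, so that reads of G6pdx were not split with it as far as the assigned counts show.

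In mice without GKA, Pgd ranged from 37.8 to 126.8 CPM in PP (median 63.0), from 27.6 to 90.3 in PL (median 50.8) and from 29.0 to 65.02 in LL (median 40.7). With GKA it ranged from 32.2 to 160.6 in PP (median 67.6), from 32.7 to 102.8 in PL (median 58.8) and from 29.8 to 66.6 in LL (median 49.6). The groups overlapped, with LL mice in the lower part of the PP range and absent from its upper part. Of the LL mice, 10 of 10 without GKA and 10 of 10 with GKA lay below the mean of PP mice of the same treatment. Without GKA the highest LL mouse (65.02 CPM) was just below that mean (65.39). Below the PP median lay 9 of 10 LL mice without GKA and 10 of 10 with GKA. Of the LL mice, 5 without GKA and 1 with GKA lay below the lowest PP mouse.

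**Figure D2:**
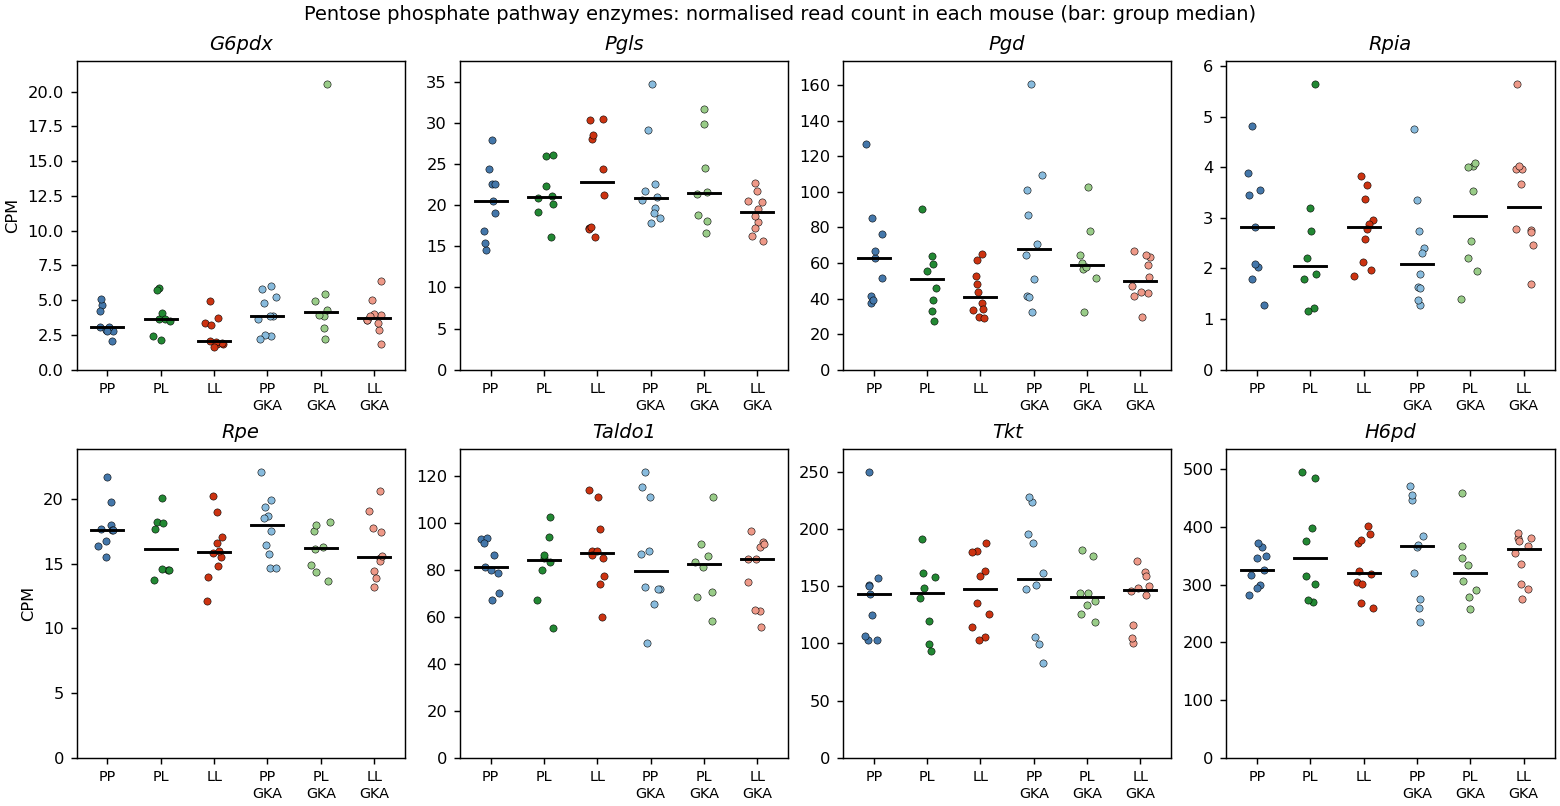
Normalised read count (CPM, linear axis from 0) of each enzyme in each of the 55 mice by genotype and GKA, with a bar at the group median. In the Pgd panel, LL mice with GKA reach 66.6 CPM, whereas PP mice reach 126.8 without GKA and 160.6 with GKA; in the G6pdx panel a single PL mouse with GKA stands at 20.6.

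Over both treatments, with GKA as a term, Pgd was lower in LL than in PP mice (log2 fold change -0.58, SE 0.165, 95% interval -0.91 to -0.25, 0.671-fold, adjusted p = 0.0322, edgeR quasi-likelihood test), from a mean of 70.9 ± 34.3 CPM (SD, n = 19) in PP to 47.3 ± 12.8 (SD, n = 20) in LL. Pgd was the 1 enzyme of 8 that was called, that is, with an adjusted p under 0.05 over all genes and a ratio of the groups of 1.3 or more, or of 0.7 or less, and it was lower. In this comparison 195 of 11477 genes were called (1.7%), of which 87 were lower (0.758%). DESeq2 called Pgd as well, with 1.84% of all genes. The heterozygotes lay between the homozygotes, with a mean of 57.4 ± 20.5 CPM (SD, n = 16), but neither step was resolved. Pgd was -0.30 on the log2 scale in PL against PP (95% interval -0.65 to 0.05, adjusted p = 0.453) and -0.28 in LL against PL (95% interval -0.62 to 0.07, adjusted p = 0.696). Taken by treatment, the LL to PP difference in Pgd was -0.58 without GKA (SE 0.216, unadjusted p = 0.014, adjusted p = 0.269) and -0.57 with GKA (SE 0.239, unadjusted p = 0.0267, adjusted p = 0.403). The genotype by GKA interaction did not separate these values (unadjusted p = 0.982, edgeR quasi-likelihood F test), and they use the same mice as the pooled value.

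The call on Pgd was close to the threshold. It was lost when the filter on low counts was removed (log2 fold change -0.58, adjusted p = 0.0582), when a score of 16 circadian clock genes (their first principal component) was added as a covariate (-0.62, adjusted p = 0.0988) and when transcript length entered as an offset (-0.46, adjusted p = 0.383). It was also lost without any 1 of PP mouse 2, 6, 16 or 18 or LL mouse 53, with adjusted p up to 0.0764 (without PP mouse 6). The median clock score was -0.62 in PP, 0.83 in PL and 0.35 in LL without GKA, and -1.10, 0.51 and 0.09 with GKA, and its correlation with Pgd within groups was 0.06 over 55 mice. For the other enzymes this correlation ran from -0.55 (H6pd) to 0.44 (Taldo1), with Pgls at 0.31. The summed level of the 4 recruited macrophage markers, all detected, had a median of 27.8 CPM (19.2 to 106.7) in PP and 23.2 (14.1 to 57.2) in LL without GKA, and 31.1 (13.1 to 58.2) and 27.5 (15.9 to 99.5) with GKA. It correlated with Pgd within groups (r = 0.45 over 55 mice), and with this sum as a covariate the LL to PP difference in Pgd was -0.52 (adjusted p = 0.0266).

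The other 7 enzymes were not called between LL and PP over both treatments (0 of 7 by edgeR and 0 by DESeq2), although Rpe had an unadjusted p under 0.05, so that with Pgd 2 of 8 enzymes did, against 16% of all genes. Tkt, transketolase, differed by -0.08 on the log2 scale (95% interval -0.30 to 0.15), and its mean was 151 ± 47.8 CPM (SD, n = 19) in PP and 143 ± 28.3 (SD, n = 20) in LL. Taldo1 differed by -0.003 (95% interval -0.19 to 0.18), H6pd by -0.02 (-0.19 to 0.15) and Pgls by -0.03 (-0.23 to 0.17). For these 4 enzymes the intervals of the main fit exclude a change of the size fitted for Pgd (-0.58). The intervals were wider for the 2 scarce transcripts. That of G6pdx (-0.20, 95% interval -0.59 to 0.19) includes a fall of that size, and that of Rpia (0.25, -0.11 to 0.61) excludes such a fall but not a rise of the same size. The interval of Pgd itself (-0.91 to -0.25) overlaps that of Tkt, and no difference between enzymes was tested.

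**Figure D3:**
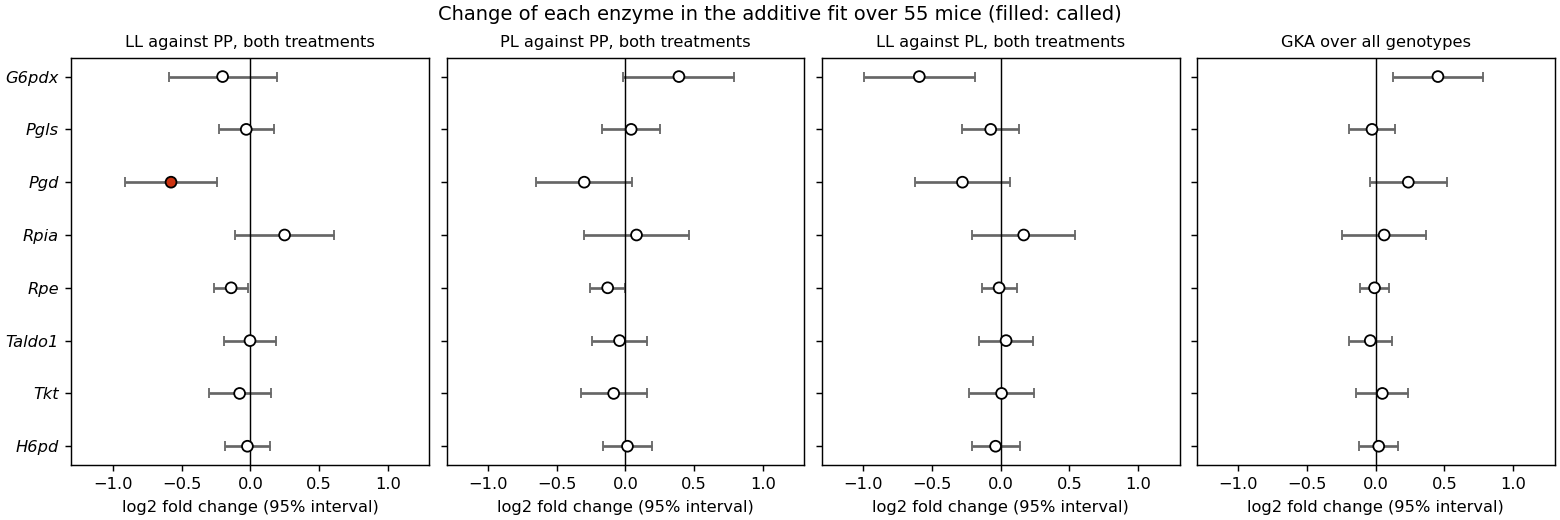
Log2 fold change of each enzyme with its 95% interval in the 4 comparisons pooled over treatment or genotype (55 mice). The filled point is the only call, Pgd in LL against PP (-0.58), and the intervals of Pgls, Taldo1, Tkt and H6pd cross 0 in all 4 panels.

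Rpe varied least of all 8. It ranged from 15.5 to 21.7 CPM in PP (median 17.6), from 13.7 to 20.1 in PL (median 16.1) and from 12.1 to 20.2 in LL (median 15.9) without GKA. With GKA the medians were 18.0, 16.2 and 15.5. The groups overlapped, but 4 of 8 PL and 3 of 10 LL mice lay below the lowest PP mouse without GKA, and 2 of 8 PL and 3 of 10 LL mice did with GKA. Over both treatments Rpe was -0.14 on the log2 scale in LL against PP (95% interval -0.26 to -0.02, unadjusted p = 0.0248, adjusted p = 0.222) and -0.13 in PL against PP (95% interval -0.26 to -0.0007, unadjusted p = 0.0487, adjusted p = 0.35), both below the fold threshold. In PL against PP over both treatments 0 of 8 enzymes were called by edgeR and 0 by DESeq2, against 1.05% and 1.31% of all genes. In edgeR 1 enzyme had an unadjusted p under 0.05, against 14.1% of all genes. The value for Rpe turned to 0.024 (unadjusted p = 0.884) with the transcript length offset. With the clock covariate 3 of 8 enzymes had an unadjusted p under 0.05 (1430 of 11477 genes), and 0 were called. For PL against PP without GKA the clock covariate raised this number from 0 to 4 enzymes (1391 of 10580 genes), with 0 called.

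G6pdx, the committing enzyme, had medians of 3.04 CPM in PP (2.08 to 5.06), 3.65 in PL (2.16 to 5.86) and 2.05 in LL (1.62 to 4.95) without GKA. With GKA the medians were 3.88 in PP (2.22 to 6.03), 4.12 in PL (2.22 to 20.6) and 3.73 in LL (1.83 to 6.35). All groups overlapped, and the lowest median was that of LL without GKA, in which 6 of 10 mice lay below the lowest PP mouse and 6 of 10 below the lowest PL mouse. Pooled over genotypes, G6pdx was 0.45 higher on the log2 scale with GKA (SE 0.163, 95% interval 0.13 to 0.78, unadjusted p = 0.00755) but did not pass the adjustment over all genes (adjusted p = 0.769). In that comparison 0 of 8 enzymes and 0 of 11477 genes were called by edgeR (0%), 1 enzyme and 5.28% of all genes had an unadjusted p under 0.05, and DESeq2 called 0 of 8 enzymes and 1 gene. The change in G6pdx with GKA was 0.26 in PP, 0.60 in PL and 0.51 in LL (unadjusted p = 0.231, 0.14 and 0.0309), with 9 of 10 treated LL mice above the untreated LL median, and the interaction did not separate the genotypes (unadjusted p = 0.684). For GKA in LL, 0 of 8 enzymes had an unadjusted p under 0.05 with the clock covariate (491 of 10458 genes) or the transcript length offset (732 of 10458). Over all genotypes the offset also left 0 of 8 (907 of 11477 genes), and the clock covariate left 1 (700 of 11477).

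Between LL and PL over both treatments, G6pdx was lower in LL by 0.59 on the log2 scale, which did not pass (log2 fold change -0.59, SE 0.201, unadjusted p = 0.00484, adjusted p = 0.245). Here 0 of 8 enzymes were called by edgeR (1 at an unadjusted p under 0.05, 0 by DESeq2) against 0.34% of all genes (8.82% unadjusted, 0.444% called by DESeq2). PL mouse 32, which received GKA, was at 20.6 CPM, and the next PL mouse with GKA was at 5.42. Without that mouse the values for G6pdx were 0.28 for GKA over all genotypes (unadjusted p = 0.0373) and -0.30 for LL against PL (unadjusted p = 0.0675).

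Pgls, the lactonase, had medians of 20.6 CPM in PP, 21.0 in PL and 22.8 in LL without GKA, and of 20.8, 21.5 and 19.2 with GKA. Its LL mice reached 30.5 CPM without GKA but only 22.7 with GKA. The GKA difference in LL was -0.27 on the log2 scale (unadjusted p = 0.0467, adjusted p = 0.806), and the interaction had an unadjusted p of 0.0738 (adjusted p = 1). With the clock covariate or the transcript length offset, no enzyme had an unadjusted p under 0.05 for GKA in LL. Rpia, the isomerase, was 0.53 higher in LL than in PP with GKA (SE 0.235, unadjusted p = 0.0356, adjusted p = 0.439), with a median of 3.22 CPM (1.69 to 5.64) against 2.10 (1.27 to 4.76) and 9 of 10 LL mice above the PP median. Without GKA the same difference was -0.03 (unadjusted p = 0.899), and the interaction did not separate them (unadjusted p = 0.257). Neither enzyme passed the adjustment in any comparison.

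Tkt, Taldo1 and H6pd, the most abundant transcripts, had no unadjusted p under 0.05 in the main fit of any of the 15 comparisons. Median Tkt was 143.2, 143.9 and 147.1 CPM in PP, PL and LL without GKA and 156.1, 140.6 and 147.0 with GKA. Median Taldo1 was 81.1, 84.4 and 87.2 CPM without GKA and 79.8, 82.4 and 84.7 with GKA, whereas median H6pd was 325.6, 345.9 and 320.6 without and 367.6, 320.2 and 361.0 with GKA. The pooled change with GKA was 0.05 for Tkt (95% interval -0.14 to 0.24), -0.04 for Taldo1 (-0.20 to 0.12) and 0.02 for H6pd (-0.12 to 0.16).

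In the comparisons of 2 groups edgeR called 0 of 8 enzymes each. For LL against PP without GKA the share of all genes called was 0.0854%, and 1 enzyme (Pgd) had an unadjusted p under 0.05 against 11.8% of all genes. For PL against PP without GKA it was 0.151%, with 0 enzymes against 10.1% unadjusted, and for LL against PL without GKA it was 0.00942%, with 1 enzyme (G6pdx) against 4.58%. With GKA, it was 0.239% for LL against PP, with 2 enzymes (Pgd and Rpia) against 10.4% unadjusted. It was 0% for PL against PP with GKA, with 0 enzymes against 8.19%, and 0% for LL against PL with GKA, with 1 enzyme (Pgls) against 8.6%. For GKA against no GKA it was 0% in each genotype, with 0 enzymes against 3.56% unadjusted in PP, 0 against 3.18% in PL and 2 (G6pdx and Pgls) against 6.15% in LL. DESeq2 also called 0 of 8 enzymes in each of these 9 comparisons, but it called more of all genes. Its shares without GKA were 1.03% for LL against PP, 0.671% for PL against PP and 0.226% for LL against PL, and with GKA they were 0.88%, 0.295% and 0.372%. For GKA against no GKA its shares were 0% in PP, 0.00962% in PL and 0.0574% in LL. Tested across all 6 groups at once, G6pdx (unadjusted p = 0.00942, adjusted p = 0.175) and Pgd (unadjusted p = 0.0192, adjusted p = 0.252) came first, and 0 of 8 passed in edgeR against 1.88% of all genes (2 enzymes against 12.7% unadjusted). DESeq2 also passed 0 of 8, against 3.51% of all genes. For the interaction 0 of 8 passed against 0%, with 0 enzymes at an unadjusted p under 0.05 against 4.31% of all genes and 0 by DESeq2.

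The variation of the enzymes between mice of 1 group exceeded most of the differences between groups. The SD within groups on the log2 CPM scale was 0.55 for G6pdx, 0.54 for Pgd and 0.51 for Rpia, and then 0.36 for Tkt, 0.29 for Taldo1 and Pgls, 0.26 for H6pd and 0.19 for Rpe. G6pdx and Rpia rested on few reads. Pgd was covered more deeply, and its SD stood at the 93.9th percentile of 925 genes of like level. From the lowest to the highest liver, Pgd spanned 5.81-fold and Tkt 3.02-fold.

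After the mean of each group was subtracted, Pgd and Tkt rose and fell together across mice (r = 0.91, 55 mice). Both also went with Taldo1 (r = 0.71 for Pgd and 0.69 for Tkt) and, less closely, with Rpia (0.57 and 0.51), and Pgd went with G6pdx at 0.52. Pgls went with Taldo1 (0.64) more than with Pgd (0.30), and Rpe with none of them (-0.02 to 0.20 with the other cytosolic enzymes). H6pd had negative values with all the cytosolic enzymes, from -0.72 (Taldo1) to -0.16 (G6pdx), but 95% of all tested genes had r between -0.61 and 0.63 with H6pd, and of the enzymes Taldo1 alone lay outside this range. The value for Pgls with Taldo1 lay within the same range for Pgls (-0.69 to 0.70). These values are descriptions over the same 55 libraries, in which the enzymes share depth, RNA quality and cell content, and no p is given.

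**Figure D4:**
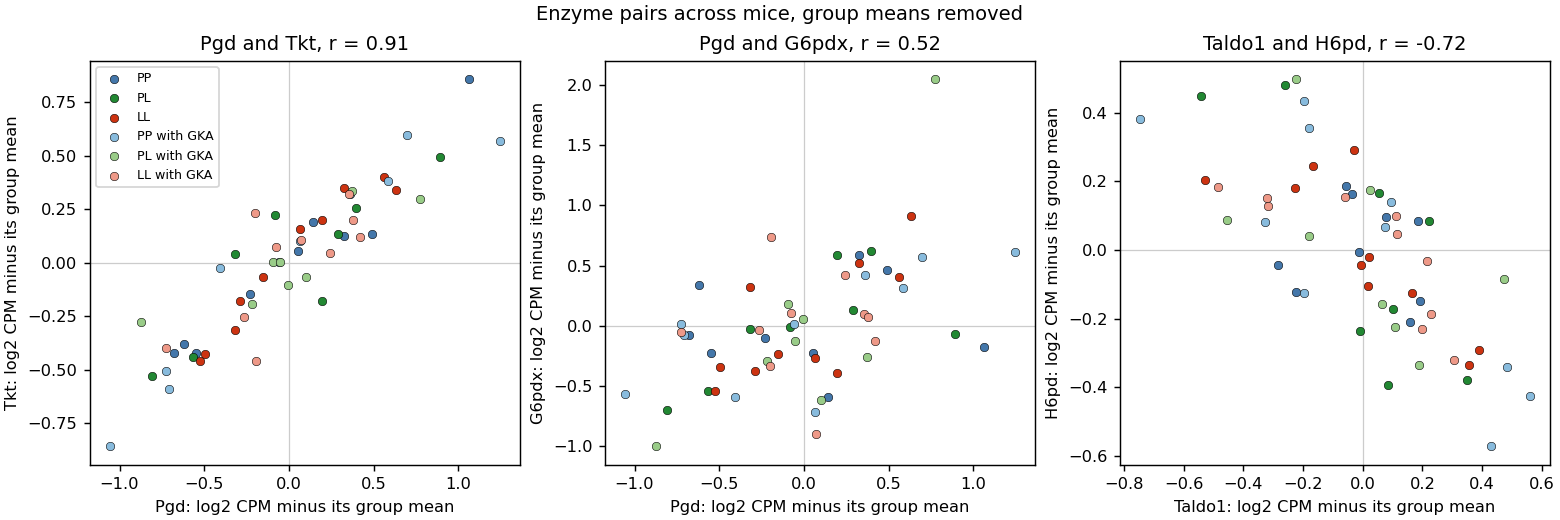
Each point is 1 of 55 mice, placed by log2 CPM minus its group mean for a pair of enzymes and coloured by group. Pgd and Tkt lie along a line (r = 0.91), G6pdx and Pgd scatter more (0.52) with PL mouse 32 far above the rest, and Taldo1 and H6pd slope downward (-0.72).

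Part of this pattern moved with transcript length. An index of each library, the mean log2 CPM of the 1148 tested genes with the longest effective length minus that of the 1148 with the shortest, correlated within groups at -0.85 with Pgls, -0.68 with Taldo1 and 0.70 with H6pd. Its correlation was -0.26 with Pgd, -0.21 with Tkt, -0.15 with G6pdx, -0.27 with Rpia and -0.24 with Rpe. Its group medians ran from -0.29 (PL) to 0.04 (PP with GKA), and with the index as a covariate Pgd remained called between LL and PP (-0.55, adjusted p = 0.0304). Its part in the correlations of Pgls, Taldo1 and H6pd was not tested. Within groups the clock score correlated with H6pd at -0.55, with Taldo1 at 0.44 and with Pgls at 0.31. Its part in the correlations between enzymes was not tested. The recruited macrophage sum correlated with Tkt at 0.51, with Taldo1 at 0.37 and with H6pd at -0.10 over the same mice, and its part in the correlations was not tested either.

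**Figure D5:**
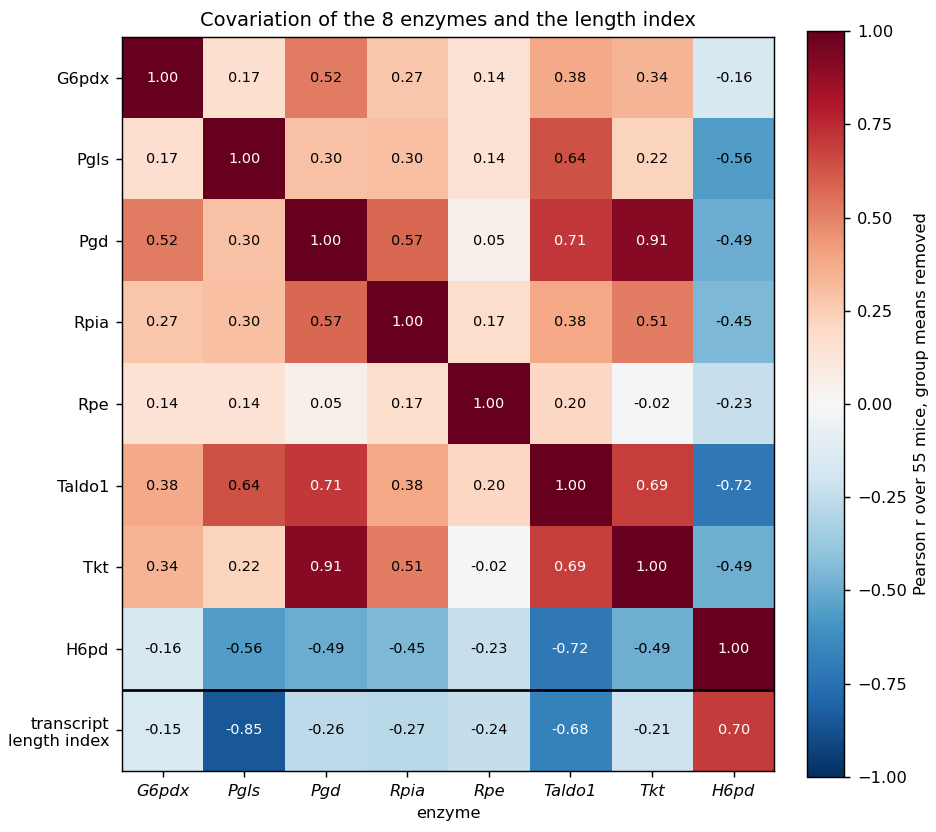
Pearson r over 55 mice between the 8 enzymes, with group means removed, and in the bottom row between each enzyme and the transcript length index. Pgd, Tkt and Taldo1 form the block with the highest values (0.69 to 0.91), H6pd is negative with all others, and the index is strongest with Pgls (-0.85), H6pd (0.70) and Taldo1 (-0.68).

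The genes most like Pgd in this variation were Gpi1, glucose-6-phosphate isomerase (r = 0.92), Tkt (0.91) and Me1, the cytosolic malic enzyme that also yields NADPH (0.91), whereas 95% of all tested genes had r between -0.50 and 0.50 with Pgd. For Tkt they were Pgd (0.91), Eno1, enolase (0.87) and Gpi1 (0.87). For Taldo1 they were Gapdh (0.94), Atox1 (0.92) and Psmb5 (0.91), for Pgls Edf1 (0.90), D8Ertd738e (0.87) and Ndufa13 (0.87), and for H6pd Lrp1 (0.87), Plxnb2 (0.84) and Fn1 (0.83). The highest values were lower for the scarce or steady transcripts, with Acss2 (0.61), Chrna4 (0.61) and Pnpla3 (0.60) for G6pdx, Acsl5 (0.65), Rassf6 (0.63) and Pip4p1 (0.63) for Rpia and Cfap68 (0.51), Ndufc2 (0.49) and Dync1i2 (0.49) for Rpe. Against 12 genes of fatty acid and triglyceride synthesis, the median r was 0.74 for Pgd, 0.70 for Tkt, 0.54 for Rpia, 0.49 for G6pdx and 0.40 for Taldo1. It was 0.05 for Pgls, 0.02 for Rpe and -0.28 for H6pd. Against 17 genes of NRF2 targets and glutathione reduction, it was 0.48 for Tkt, 0.43 for Taldo1, 0.42 for Pgd, 0.21 for Rpia and 0.11 for G6pdx, and -0.04 for Pgls, -0.10 for Rpe and -0.31 for H6pd.

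Of the genes around the pathway, the 16 listed accessory genes of ribose, gluconate and xylulose metabolism held 13 that were tested, and 0 were called between LL and PP over both treatments (5 at an unadjusted p under 0.05), beside 1.7% of all genes called and 16% unadjusted. The smallest p was that of Xylb, xylulokinase, which was 0.19 higher on the log2 scale (SE 0.0488, adjusted p = 0.018) and below the fold threshold. Of the other producers of NADPH, 10 of 12 were tested and 0 were called (4 unadjusted), with 8 of 10 below 0 and a median of -0.13 against 0.003 over all genes. Among these, Idh1, cytosolic isocitrate dehydrogenase, was at -0.15 (adjusted p = 0.0881) and Me1 at -0.53 (adjusted p = 0.171). Of the NRF2 and glutathione list 17 of 18 were tested and 0 were called (1 unadjusted, Txnrd1 at -0.16, adjusted p = 0.193).

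In the list of lipogenesis, a process that draws on NADPH, 4 of 12 were called and all 4 were lower in LL than in PP over both treatments, against the same 1.7% of all genes. These were Acly, ATP citrate lyase (-0.99, adjusted p = 0.009), Gpam, glycerol-3-phosphate acyltransferase (-0.72, adjusted p = 0.0208), Elovl6, a fatty acid elongase (-0.85, adjusted p = 0.0273), and Pnpla3 (-1.35, adjusted p = 0.0406), and 11 of 12 were below 0 with a median of -0.54. Among the genes called in the list of glycolysis and ChREBP targets, Txnip (1.29, adjusted p = 3.41e-05), Rgs16 (1.15, adjusted p = 0.0327) and G6pc1, the glucose-6-phosphatase that removes the substrate of the pathway (0.99, adjusted p = 0.00135), were higher in LL. That list as a whole did not rise, since 11 of its 18 tested genes were below 0, with a median of -0.09. Between LL and PL over both treatments, Acss2 was lower (-1.06) and Txnip (0.82) and G6pc1 (1.22) were higher, and with GKA over all genotypes 0 genes of any of these lists were called by edgeR. These lists were chosen with earlier results of these data known, so that their counts are a description. The counts are those of the main fit, which called 195 of 11477 genes between LL and PP over both treatments. With the clock covariate 82 were called, and with the transcript length offset 28.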

How the data were processed

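RNA from the left lateral liver lobe (RIN above 6) was sequenced in 56 mice. The authors quantified reads with Salmon 1.4.0 against GENCODE mouse transcripts (GRCm39) and deposited, per transcript, NumReads (an estimated count), TPM, length and effective length. How they set strand was not given in the sources used here. Here the deposited estimated counts were summed per gene (98.8% of 139225 transcripts matched) and rounded to whole numbers for tests. The deposited TPM values were used only for ranks, since the highest single transcript took 35350 to 522240 TPM per liver. PP mouse 7, removed by the study, was left out. Tests used edgeR 4.0.16 (quasi-likelihood, TMM, filterByExpr, R 4.3.3) with Benjamini-Hochberg adjustment over all genes. The pooled comparisons fitted genotype and GKA as additive terms over 55 mice, the 9 comparisons of 2 groups fitted those groups only, and F tests addressed the interaction and the 6 groups. CPM used TMM library sizes, and log2 CPM a prior count of 2. The script was tested on simulated data. Of simulated 1.5-fold changes, 40.9% were called in LL against PP without GKA and 66.3% over both treatments. Of 2-fold changes, 87.1% and 91.7% were called. Alternatives were DESeq2 1.42.0, RLE factors, no filter, no fold threshold, a clock covariate, a transcript length offset, all groups in 1 fit, PP mouse 7 kept and each mouse left out. The covariates for the length index and for recruited macrophages, and CPM per kb, were chosen after seeing the data. All 8 enzymes are named; of the other lists, the called genes or else the gene with the smallest p in LL against PP; and for likeness, the 3 highest correlations. Me1 was named also after its value was seen, and 1 gene of the glycolysis list is not reported here. The enzymes and lists were chosen with earlier results of these data known. Within groups, no pair of libraries was close to identical (236 pairs, lowest chi-square per degree of freedom 12.4). Promoters came from RefSeq.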

Additional observations from a re-analysis of the deposited data

Results flagged for a closer look

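In PL mouse 32 with GKA, G6pdx was at 20.6 CPM against 5.42 in the next highest of the 8 mice of its group. On the log2 CPM scale this was a gap of 0.612 of the group's range. In PP mouse 6 without GKA, Tkt was at 249.8 CPM against 157.5 in the next of 9 mice, a gap of 0.519 of the range in log2 CPM. Both gaps exceeded Dixon's 95% critical value for groups of that size. Of 48 enzyme and group combinations, 2 were set apart in this way, and chance flags about 1 in 20. PP mouse 6 also had the highest Pgd of its group (126.8 CPM).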

How the results depend on the processing

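The number of enzymes called between LL and PP over both treatments fell from 1 to 0 with no filter on low counts, with the clock covariate and with the transcript length offset, and it ranged from 0 to 1 when each of 55 mice was left out (1 in 50 fits, with the log2 fold change of Pgd between -0.62 and -0.48 and its adjusted p between 0.0151 and 0.0764). It stayed at 1 with DESeq2, RLE factors, PP mouse 7 kept, no fold threshold and the covariates for the length index or recruited macrophages. In the other 5 comparisons refitted without each mouse the count was 0 throughout. The offset and the clock covariate also changed how many of all genes were called between LL and PP over both treatments, 28 and 82 against 195, and without the fold threshold it was 441. 1 fitted change reversed, Rpe in PL against PP over both treatments (0.024 with the length offset). Of 104 fitted changes, 103 were classed as unchanged with DESeq2, 104 with RLE factors and 82 with the clock covariate. With the length offset 64 were. The others were classed as moved, weaker or reversed. These classes depend on calls as well as on the size of a shift, so they do not count the shifts below the error. The rank of an enzyme within its group by TPM matched that by CPM in 32 of 48 cases and that by CPM per kb in 28 of 48. No paired analysis was possible because each mouse number occurs in 1 group only. Read counts of at most 50.0 per liver for Rpia, and a median of 22.9 for G6pdx, limit what could be resolved for both.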

Other observations

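PP mouse 7, which entered no comparison, had G6pdx at 5.50 CPM, above the range of the other untreated PP mice (2.08 to 5.06), and Rpe at 14.5 and H6pd at 274.1, below theirs (15.5 to 21.7 and 282.9 to 372.0). Its Pgd (104.9 CPM) and Tkt (175.0) lay within their ranges. Its summed Kupffer cell and macrophage markers were at 492.7 CPM against 178 to 376 in the other untreated PP mice.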
